A study of Mus musculus with 18 samples.

Results

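The interferon response genes described here are 49 genes that interferons are known to switch on, or that sense viral nucleic acid and pass the signal on. Rows were taken by gene symbol: every row of the deposited expression table whose symbol was on the list was used, which gave 49 of its 24341 genes. The list itself was drawn up with earlier results of these data known. Interferons are secreted proteins that warn neighbouring cells of infection. They bind receptors that work through JAK kinases and STAT proteins. Complexes that hold STAT2 and IRF9 then bind a DNA element called the ISRE, while an element called GAS serves the response to interferon gamma. The products block viral entry, degrade or trap viral RNA, tag proteins with the ubiquitin-like protein ISG15, attack the compartments that hold microbes, and attract lymphocytes. Uninfected tissue keeps many of these genes at a low level.

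RNA was sequenced from whole hearts of C57BL/6 mice, 12 weeks old per the labels, in 18 libraries that form 6 groups of 3. The mice were wild type (WT) or had a knockout of Med13 in the heart, labelled Med13cKO and called cKO here. Each genotype received normal chow (labelled NC), propylthiouracil in the diet (labelled PTU), which stops the thyroid from making its hormones, or the same diet and then triiodothyronine, T3 (labelled PTUt3), the hormone form that acts on the nuclear receptors. Diets ran for 4 weeks from the age of 8 weeks, and T3 was injected on 3 days. All groups share the strain, the age and the organ, and the promoter that drives the recombinase was not stated in the labels. Nothing in them ties each library to an animal of its own, and the p-values then cover the spread between libraries only, which may be technical in part. In whole hearts, fewer cells of a type and less RNA per cell cannot be told apart.

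Med13 did not separate the genotypes: it lay between 5.24 and 6.96 FPKM in the 9 libraries labelled WT and between 4.93 and 6.82 FPKM in the 9 labelled cKO, so every direction between genotypes below rests on the labels. FPKM is a level scaled for gene length and library size. The absolute depth is unknown. From ratios of low FPKM values between libraries, the deepest library was estimated to hold 1.53 times the reads of the shallowest. A pair of libraries stood above their groups. WT with T3 replicate 1 was the highest of its 3 libraries in 38 of the 49 interferon response genes, against 31.5% of all tested genes. cKO on PTU replicate 2 was the highest of its 3 in 31 of the 49, against 31.2% of all tested genes, and held 692 summed FPKM of 15 macrophage markers, against 228 and 280 in the other libraries of its group. Counts and the members most affected are given with and without this pair. Other libraries stood low: cKO with T3 replicate 1 was the lowest of its 3 in 31 of the 49, against 33.5% of all tested genes. WT with T3 replicate 2, cKO chow replicate 1 and cKO on PTU replicate 1 were each the lowest in 29. The shares of all tested genes there were 39.2%, 30% and 27.8%. Cardiomyocyte markers were abundant in every library, with 33317 to 64656 summed FPKM over 6 genes, and the 4 atrial markers ranged from 27.0 to 2515 summed FPKM, with WT on PTU replicate 1 at the highest value.

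In WT hearts the interferon response genes were lower on PTU than on chow and higher after T3 than on PTU. Of 48 tested members, 21 fell and 0 rose on PTU, against 8.76% and 8.02% of all 12587 tested genes. After T3, 34 rose and 0 fell, against 22.3% and 21.8% of all tested genes. The count on PTU depended on the libraries: it was 12 without WT on PTU replicate 1, 13 without WT chow replicate 3, and 8 without the heart of each group highest in atrial markers, where 3.15% of all tested genes fell. Of the 21 calls on PTU 5 held in every alternative (Irf1, Gbp2, Gbp3, Gbp4 and Gbp5), and of the 34 after T3 23 did. As shares of the members the counts with all libraries are 43.8% for the fall on PTU and 70.8% for the rise after T3. Because the members were listed with earlier results of these data known, an excess over all tested genes is no independent evidence. The median log2 fold change of the tested members was -0.45 on PTU and 0.70 after T3, and that of all tested genes was within 0.01 of 0 in both. All 3 PTU libraries lay below all 3 chow libraries for 28 members (58.3%, against 17.3% of all tested genes), and all 3 T3 libraries lay above all 3 PTU libraries for 36 (75%, against 25.4%). A member counted as changed when its adjusted p was under 0.05 in a limma fit of log2(FPKM + 1) over all 18 libraries, with p-values adjusted over all tested genes by the Benjamini-Hochberg method. Tested genes had at least 1 FPKM in at least 3 libraries. Of the members, 39 reached 1 FPKM in all 18 libraries, and Mx1, an antiviral GTPase, was left untested with a highest value of 0.918 FPKM. Cxcl10, Zbp1 and Dhx58 passed this filter only through the hearts given T3 and would otherwise be untested. Their calls after T3, 3 of the 34, are thus no independent evidence of a rise. They are also counted among the 36 members whose T3 libraries all lay above the PTU libraries, which is no independent evidence either. With a mean of at least 3 FPKM asked for instead, 18 of 33 members fell on PTU and 24 rose after T3. The counts of 12, 13, 18 and 24 are not set against shares of all tested genes. Of the 21 members lower on PTU, 18 were among the 34 higher after T3, although both comparisons use the same PTU libraries.

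**Figure D1:**
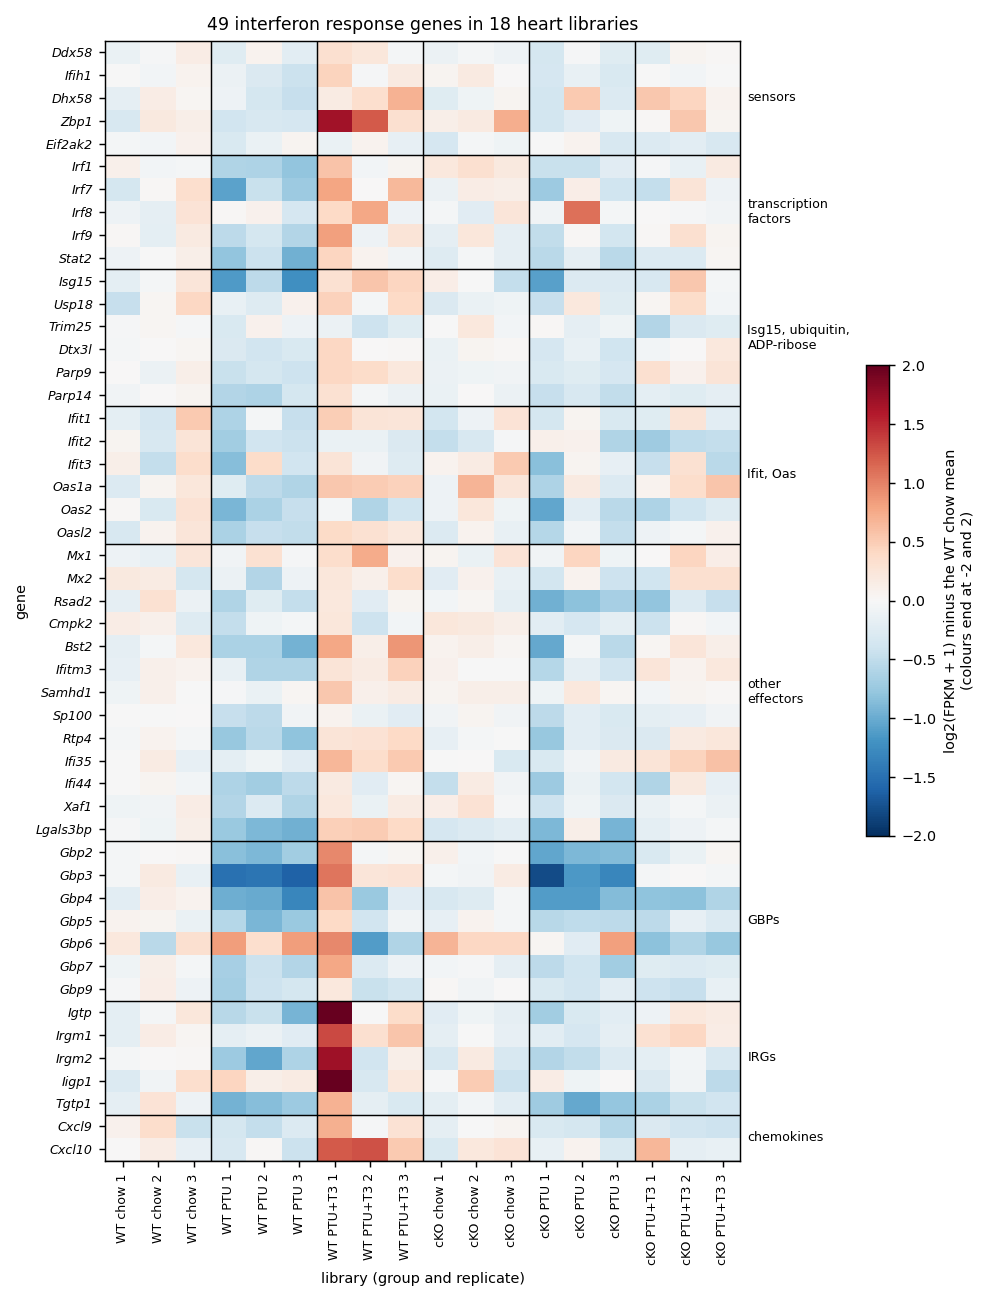
Rows are the 49 interferon response genes by role (GBPs, guanylate-binding proteins; IRGs, immunity-related GTPases), columns the 18 libraries, and colour the level as log2(FPKM + 1) minus the mean of the 3 WT chow libraries. The PTU columns of both genotypes are mostly blue, and WT PTU+T3 replicate 1 holds the deepest red, in Igtp, Iigp1, Irgm2 and Zbp1.

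The DNA just before the start of several members shows the elements that interferon signalling is known to use. RefSeq promoter sequences (build GRCm38.p6, the assembly of mm10) matched 36 of the 49 members by symbol. In the 250 bases before the start, GAAANNGAA, the core of the ISRE, read on both strands, was present for 19 of the 36 (52.8%), against 8.18% of 27025 genes with such a sequence. TTCNNNGAA, the GAS pattern, which reads the same on both strands, was present for 12 (33.3%), against 8.13%. The ISRE core was found for all 4 matched guanylate-binding protein genes and for all 4 matched immunity-related GTPase genes, and for 1 of 5 transcription factor genes. Members were listed because interferon induces them, so these shares describe the list and test nothing. The 120 bases before the start, 5′ to 3′ on the gene's strand, are shown for 7 members that carry the results below: Irf1 (chr11:53769894-53770013, plus strand), Isg15 (chr4:156200819-156200938, minus), Gbp2 (chr3:142620543-142620662, plus), Gbp3 (chr3:142559924-142560043, plus), Igtp (chr11:58199436-58199555, plus), Irgm2 (chr11:58214857-58214976, plus) and Irgm1 (chr11:48871421-48871540, minus). Capitals mark every match to either pattern, and overlapping matches run together.
Irf1: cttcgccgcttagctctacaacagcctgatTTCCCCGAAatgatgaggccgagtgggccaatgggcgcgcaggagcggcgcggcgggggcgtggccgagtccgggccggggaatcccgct
Isg15: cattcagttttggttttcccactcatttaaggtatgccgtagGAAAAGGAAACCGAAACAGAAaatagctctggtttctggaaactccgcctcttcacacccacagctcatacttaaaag
Gbp2: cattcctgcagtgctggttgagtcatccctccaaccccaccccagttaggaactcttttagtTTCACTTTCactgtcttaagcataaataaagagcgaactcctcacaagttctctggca
Gbp3: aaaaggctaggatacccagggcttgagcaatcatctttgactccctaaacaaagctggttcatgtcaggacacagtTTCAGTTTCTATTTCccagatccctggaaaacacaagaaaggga
Igtp: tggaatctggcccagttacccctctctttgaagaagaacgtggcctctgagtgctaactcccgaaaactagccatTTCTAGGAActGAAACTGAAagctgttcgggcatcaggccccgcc
Irgm2: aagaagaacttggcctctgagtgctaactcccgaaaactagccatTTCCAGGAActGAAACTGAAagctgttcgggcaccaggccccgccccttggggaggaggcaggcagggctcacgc
Irgm1: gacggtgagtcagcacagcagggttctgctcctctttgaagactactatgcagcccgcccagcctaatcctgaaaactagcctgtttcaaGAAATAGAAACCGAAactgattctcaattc
Irf1 holds a GAS match and no ISRE core, Isg15 holds 3 overlapping ISRE cores, and Gbp3 holds 2 on the other strand. Igtp and Irgm2 each hold a GAS match followed by an ISRE core, within a stretch where 87 of 90 bases were identical. Among members with a sequence, 17 of 19 with an ISRE core and 11 of 17 without one rose after T3 in WT. On PTU, 8 of 19 and 7 of 17 fell. In cKO, 5 of 19 and 4 of 17 rose after T3, and 5 of 19 and 3 of 17 fell on PTU. The members with an ISRE core that rose in WT include Cxcl10, which was tested only through the hearts given T3. No such split was made over all genes, so these counts give no link between motif and change. A match is a run of letters and not a shown binding site.

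Among sensors of viral nucleic acid, 0 of 5 passed the test on PTU in WT (1 at an unadjusted p under 0.05), and 3 of 5 (Ifih1, Dhx58 and Zbp1) rose after T3. Eif2ak2, which encodes the kinase PKR that halts translation on double-stranded RNA, stayed between 5.12 and 7.19 FPKM in all 18 libraries, with a log2 fold change of -0.13 ± 0.12 (SE) on PTU and 0.05 ± 0.12 after T3. Ddx58, the cytosolic RNA sensor RIG-I, was 3.59, 3.95 and 4.54 FPKM on chow in WT, 3.24, 4.24 and 3.35 on PTU and 5.23, 4.85 and 3.89 after T3. These groups overlap, and neither comparison passed (adjusted p = 0.517 and 0.0612). Ifih1, the related sensor MDA5, was 2.30, 2.21 and 2.47 FPKM on chow, 2.05, 1.72 and 1.46 on PTU and 3.51, 2.26 and 2.75 after T3. All its PTU values lay below the others, and the change after T3 was 0.48 ± 0.12 on the log2 scale (adjusted p = 0.00352). Zbp1, a sensor of Z-form nucleic acid that can start necroptosis, was 0.142, 0.196 and 0.182 FPKM on PTU and 3.78, 2.49 and 0.852 after T3 in WT, a log2 change of 1.42 ± 0.27 (adjusted p = 0.000564) and 1.11 without replicate 1. Its T3 values span a wide range, and all 3 lie above the PTU values. Zbp1 and Dhx58 reached 1 FPKM in 4 and 6 libraries, 3 and 5 of them given T3, so both were tested through the groups where they are high.

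Among transcription factors, Irf1 and Stat2 fell on PTU in WT, and Irf1, Irf7, Irf9 and Stat2 rose after T3. Irf1 (chromosome 11, 53770014 to 53778374 in mm10), a factor that interferon gamma induces, was 16.6, 14.7 and 14.96 FPKM on chow, 9.85, 9.66 and 8.45 on PTU and 23.4, 14.7 and 16.1 after T3 in WT. The cKO hearts held 18.1, 19.4 and 17.9 FPKM on chow, 11.03, 11.04 and 12.99 on PTU and 15.2, 13.8 and 17.6 after T3. In both genotypes the PTU values lay below all chow and all T3 values. The log2 change on PTU was -0.67 ± 0.13 in WT (adjusted p = 0.00295) and -0.62 ± 0.13 in cKO (adjusted p = 0.00573), and after T3 it was 0.86 ± 0.13 in WT (adjusted p = 8.87e-05) and 0.38 ± 0.13 in cKO (adjusted p = 0.0278). The last of these calls ended in 6 of 17 alternative analyses, among them the one without cKO on PTU replicate 2 (adjusted p = 0.0793), and the rise in WT was 0.67 without WT with T3 replicate 1. Stat2, the partner of IRF9, was 6.06 ± 0.515 FPKM on chow, 3.31 ± 0.827 on PTU and 6.88 ± 1.48 after T3 in WT (mean ± SD of 3 libraries), with log2 changes of -0.73 ± 0.15 and 0.87 ± 0.15 (adjusted p = 0.00466 and 0.000287). In cKO it was 5.32 ± 0.512, 4.30 ± 0.794 and 5.29 ± 0.802 FPKM, and neither change passed. Irf7, which amplifies interferon alpha production, was 4.61, 6.31 and 8.02 FPKM on chow, 2.42, 4.26 and 3.32 on PTU and 11.4, 6.21 and 10.3 after T3 in WT. Its PTU libraries were the lowest, but the change on PTU of -0.75 ± 0.26 narrowly missed the threshold (adjusted p = 0.0576), and the rise after T3 was 1.23 ± 0.26 (adjusted p = 0.00127). Irf9 rose from 5.41 ± 0.535 FPKM on PTU to 10.6 ± 3.77 after T3 in WT, by 0.81 ± 0.20 on the log2 scale (adjusted p = 0.00359) and by 0.56 without replicate 1 (adjusted p = 0.019). Irf8, a factor of macrophages and dendritic cells, passed in no treatment comparison, and its highest value, 5.74 FPKM, was in cKO on PTU replicate 2.

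Of the 6 genes of the ISG15 system, ubiquitin transfer and ADP-ribosylation, 3 fell on PTU (Isg15, Parp9 and Parp14) and 4 rose after T3 (these and Dtx3l) in WT. In cKO, 1 fell on PTU, and 2 rose and 1 fell after T3. Isg15 was 5.26, 6.03 and 7.48 FPKM on chow, 2.27, 4.01 and 2.09 on PTU and 7.93, 9.62 and 8.70 after T3 in WT. The PTU values were the lowest and the T3 values the highest of these 9 libraries, with log2 changes of -0.96 ± 0.26 (adjusted p = 0.0178) and 1.39 ± 0.26 (adjusted p = 0.000438). The call on PTU ended in 4 of 15 alternatives, where the adjusted p reached 0.187: when replicate 3 of WT chow was left out, when replicate 1 or 3 of WT on PTU was, and when the heart highest in atrial markers was left out of every group. In cKO, Isg15 was 6.86, 6.19 and 4.19 FPKM on chow, 2.38, 4.93 and 4.93 on PTU and 4.77, 9.43 and 6.01 after T3, and these overlapping groups gave no call (adjusted p = 0.267 and 0.0615). Parp9, which acts with the ubiquitin ligase DTX3L, was 7.59, 6.92 and 8.26 FPKM on chow, 5.28, 5.71 and 5.42 on PTU and 10.4, 10.1 and 8.88 after T3 in WT, and 6.88, 7.04 and 7.12 FPKM on chow, 5.93, 6.21 and 5.78 on PTU and 9.65, 8.12 and 9.27 after T3 in cKO. The T3 groups stood above both other groups in each genotype. The log2 rise after T3 was 0.73 ± 0.08 in WT (adjusted p = 3.87e-06) and 0.52 ± 0.08 in cKO (adjusted p = 8.52e-05), and both calls held in all alternatives. Parp9 and Dtx3l share 1 interval in the deposited table, so reads could be split between them.

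Trim25, a ubiquitin ligase that activates RIG-I, was the only member called lower after T3 than on PTU. It was 10.6, 12.5 and 10.3 FPKM on chow, 10.8, 9.33 and 10.02 on PTU and 6.78, 8.51 and 8.83 after T3 in cKO, where the T3 libraries were the lowest. The log2 change from PTU was -0.30 ± 0.11 (adjusted p = 0.0438), a call that ended in 9 of 17 alternatives, among them equal library medians, where the adjusted p reached 0.21. In WT it was 8.47, 11.4 and 9.87 FPKM on PTU and 9.81, 7.75 and 8.86 after T3, and the overlapping groups gave -0.15 ± 0.11 (adjusted p = 0.31). Usp18, the protease that removes ISG15, lay between 1.08 and 2.95 FPKM and passed in no comparison.

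Of 6 Ifit and Oas genes, whose products bind foreign RNA or make the messenger that activates RNase L, 2 fell on PTU (Oas2 and Oasl2) and 3 rose after T3 (Ifit1, Oas1a and Oasl2) in WT. Oasl2 was 2.15, 3.14 and 3.64 FPKM on chow, 1.54, 1.85 and 1.80 on PTU and 4.13, 3.83 and 3.53 after T3. Its PTU values lay below all others, with log2 changes of -0.53 ± 0.15 and 0.82 ± 0.15 (adjusted p = 0.0251 and 0.000392), and the first call ended in 6 of 14 alternatives. Ifit3 spread widely within groups, from 1.88, 5.64 and 2.99 FPKM on PTU to 5.16, 3.90 and 3.33 after T3 in WT, and passed nowhere. Ifit2 was 6.13, 4.50 and 7.23 FPKM on chow, 3.23, 4.24 and 4.11 on PTU and 5.27, 5.25 and 4.63 after T3 in WT, but 3.95, 4.50 and 5.76 FPKM on chow, 6.33, 6.30 and 3.53 on PTU and 3.21, 3.81 and 3.95 after T3 in cKO. The cKO order differed from the WT order, with 2 of 3 PTU libraries above chow, and no treatment change of Ifit2 passed in either genotype. Ifit3 has the near-identical copy Ifit3b and Oas1a the copy Oas1g, so their shares of reads are uncertain.

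The other effectors include the most abundant members. Of 12 tested, 7 fell on PTU and 9 rose after T3 in WT. Ifitm3, a membrane protein that blocks the fusion of viruses with endosomes, was 114, 137 and 134 FPKM on chow, 115, 83.8 and 84.1 on PTU and 154, 143 and 177 after T3 in WT, and 136, 127 and 127 FPKM on chow, 85.6, 113 and 98.0 on PTU and 151, 135 and 148 after T3 in cKO. Its T3 values lay above its PTU values in both genotypes, with a log2 rise of 0.75 ± 0.13 in WT and 0.55 ± 0.13 in cKO (adjusted p = 0.000244 and 0.00247). The fall on PTU passed in WT at an adjusted p of 0.0254 and in cKO at 0.046, and ended in 7 of 15 and 9 of 17 alternatives. Bst2, or tetherin, which holds budding virus at the cell surface, was 29.8, 33.0 and 39.6 FPKM on chow, 21.6, 21.5 and 17.2 on PTU and 58.8, 36.9 and 63.2 after T3 in WT. In cKO it was 35.7, 36.9 and 34.7 FPKM on chow, 16.3, 33.1 and 23.1 on PTU and 34.9, 40.3 and 36.8 after T3. Tetherin RNA was thus lowest on PTU in each genotype, and the rise after T3 was 1.32 ± 0.21 in WT and 0.66 ± 0.21 in cKO (adjusted p = 0.000141 and 0.018). The change on PTU in cKO did not pass with all libraries and passed without cKO on PTU replicate 2 (-0.60, adjusted p = 0.0647, with it and -0.85, adjusted p = 0.0115, without it).

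Ifi35, an interferon-induced leucine zipper protein, was not called on PTU, where its values overlapped those on chow: 17.96, 20.3 and 16.1 FPKM on chow and 15.7, 16.9 and 15.3 on PTU in WT (adjusted p = 0.406). After T3 it was 29.0, 23.2 and 26.4 FPKM in WT and 21.7, 24.8 and 27.7 in cKO, above all chow and PTU values of the same genotype. Its rise over PTU was 0.68 ± 0.13 in WT and 0.49 ± 0.13 in cKO (adjusted p = 0.000633 and 0.00617), and both calls held in all alternatives. Lgals3bp, a secreted binding partner of galectins, was 16.7, 16.0 and 18.7 FPKM on chow, 9.77, 8.67 and 8.30 on PTU and 24.1, 24.7 and 22.8 after T3 in WT, and 13.4, 14.0 and 14.7 FPKM on chow, 8.68, 18.7 and 8.51 on PTU and 14.7, 15.8 and 16.7 after T3 in cKO. The WT groups do not overlap, while cKO on PTU replicate 2, the library high in macrophage markers, exceeded every other cKO library. The WT changes were -0.87 ± 0.19 on PTU and 1.33 ± 0.19 after T3 (adjusted p = 0.006 and 5.02e-05). In cKO they were -0.30 and 0.46 with all libraries (adjusted p = 0.312 and 0.0611), and -0.65 and 0.80 without cKO on PTU replicate 2 (adjusted p = 0.000319 and 5.85e-06), where both passed. Of the remaining tested effectors, Rsad2, Sp100, Rtp4, Ifi44, Xaf1 and Samhd1 passed in at least 1 treatment comparison in WT, and Mx2 and Cmpk2 in none.

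**Figure D2:**
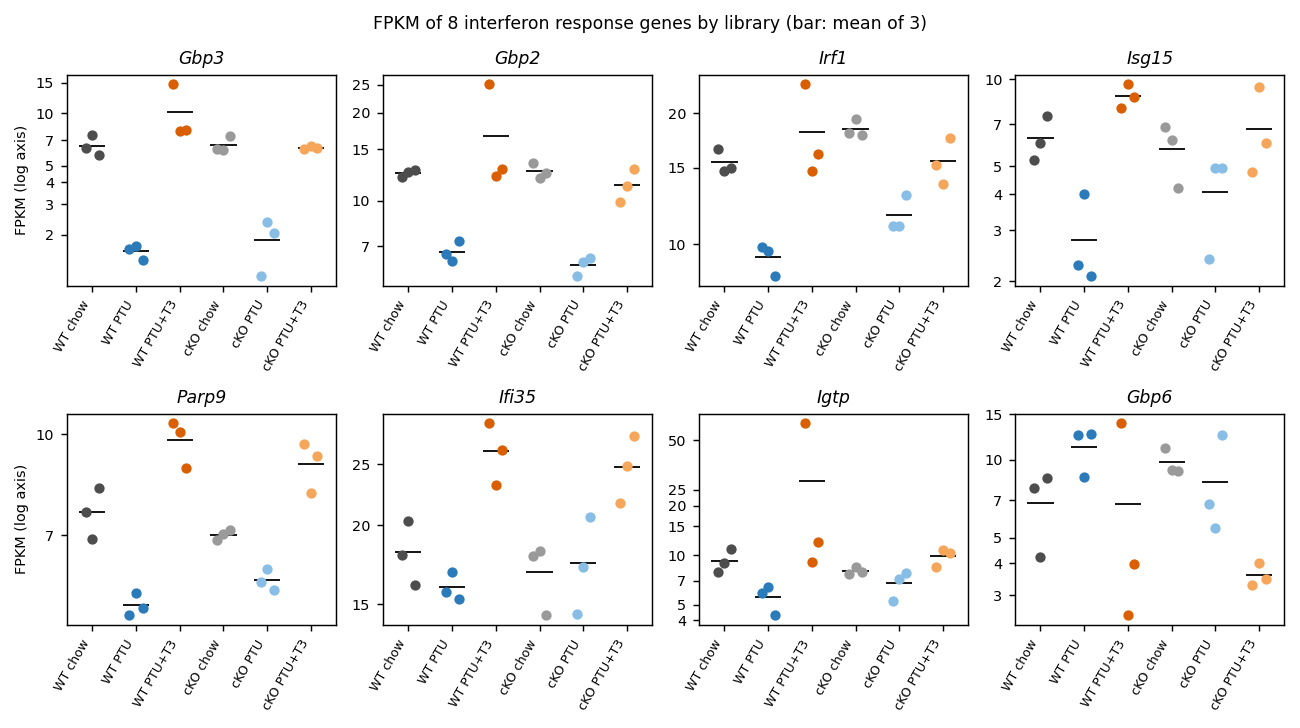
Points are the FPKM of single libraries on a log axis, in 6 groups of 3, and bars are group means, for 8 interferon response genes. Gbp3, Gbp2 and Irf1 are lowest on PTU in both genotypes, Parp9 and Ifi35 are highest after T3 in both, and 1 WT PTU+T3 library at 63.2 FPKM sets the group mean of Igtp.

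Guanylate-binding proteins, GTPases that coat microbial vacuoles, had the largest share of members lower on PTU of the 8 role groups: 6 of 7 in WT and 4 of 7 in cKO, and Gbp6 was the exception in WT. Gbp3 (chromosome 3, 142560052 to 142573212) had the largest changes of all members on the log2(FPKM + 1) scale, in both directions and both genotypes. It was 6.27, 7.47 and 5.78 FPKM on chow, 1.64, 1.71 and 1.43 on PTU and 14.8, 7.87 and 8.07 after T3 in WT, and 6.26, 6.15 and 7.40 FPKM on chow, 1.15, 2.36 and 2.04 on PTU and 6.25, 6.501 and 6.31 after T3 in cKO. The mean on PTU was 0.245 times that on chow in WT and 0.280 times in cKO, and the mean after T3 was 6.41 times and 3.43 times that on PTU. On the log2 scale the change on PTU was -1.53 ± 0.19 in WT and -1.44 ± 0.19 in cKO (adjusted p = 8.15e-05 and 0.000148). The rise was 2.06 ± 0.19 in WT and 1.39 ± 0.19 in cKO (adjusted p = 5.94e-07 and 2.28e-05). Without WT with T3 replicate 1 the rise in WT was 1.79. All 4 calls held in every alternative, and so did the 4 of Gbp2 (chromosome 3, 142620663 to 142638008).

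Gbp2 was 12.1, 12.5 and 12.7 FPKM on chow, 6.57, 6.21 and 7.30 on PTU and 25.1, 12.1 and 12.8 after T3 in WT, and 13.5, 12.0 and 12.4 FPKM on chow, 5.53, 6.20 and 6.36 on PTU and 9.88, 11.3 and 12.8 after T3 in cKO. PTU values lay below all chow and T3 values in both genotypes, and WT with T3 replicate 1 stood far above the other T3 libraries. The changes on PTU were -0.81 ± 0.18 in WT and -0.96 ± 0.18 in cKO (adjusted p = 0.0069 and 0.00282), and those after T3 were 1.13 ± 0.18 and 0.81 ± 0.18 (adjusted p = 0.000136 and 0.00187), the first of them 0.81 without that library. The 4 members on chromosome 3, Gbp2, Gbp3, Gbp5 and Gbp7, all fell on PTU and rose after T3 in WT. Gbp4, on chromosome 5, was 5.34, 7.10 and 6.72 FPKM on chow, 2.72, 2.67 and 1.96 on PTU and 9.90, 3.40 and 5.30 after T3 in WT, with changes of -1.10 ± 0.23 and 0.97 ± 0.23 (adjusted p = 0.00424 and 0.00282), the second 0.62 without that library (adjusted p = 0.00785). In cKO it was 4.88, 5.14 and 6.18 FPKM on chow, 2.40, 2.38 and 3.04 on PTU and 3.20, 3.14 and 3.82 after T3, with a change on PTU of -0.83 ± 0.23 (adjusted p = 0.0223) and 0.28 ± 0.23 after T3 (adjusted p = 0.321). T3 values of Gbp4 in cKO thus lay below all chow values. Gbp9, also on chromosome 5, fell on PTU in WT from 8.18 ± 0.769 to 5.58 ± 0.753 FPKM (adjusted p = 0.0292) and did not pass after T3.

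Gbp6, the third member on chromosome 5, was 7.77, 4.23 and 8.52 FPKM on chow, 12.5, 8.62 and 12.6 on PTU and 13.8, 2.52 and 3.98 after T3 in WT, and 11.2, 9.16 and 9.11 FPKM on chow, 6.76, 5.47 and 12.5 on PTU and 3.29, 4.00 and 3.47 after T3 in cKO. Its PTU values in WT lay above its chow values, the reverse of the other members of its family, and its T3 values were low except in WT replicate 1. With all libraries neither change in WT passed (0.67 ± 0.41, adjusted p = 0.29, and -0.92 ± 0.41, adjusted p = 0.0854). Without WT with T3 replicate 1, the change after T3 was -1.53 (adjusted p = 0.000906), the only fall among the members in that comparison. In cKO, Gbp6 was lower after PTU and T3 than on chow, with a log2 difference of -1.24 ± 0.41 (adjusted p = 0.0473), a call that ended in 8 of 15 alternatives. Gbp6 and its copy Gbp10 are near-identical, so their split of reads is uncertain.

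Of 5 immunity-related GTPases, which interferon gamma induces against microbes inside cells, 1 fell on PTU (Tgtp1) and 4 rose after T3 in WT, and their size after T3 depended on 1 library. Igtp, or Irgm3 (chromosome 11, 58199556 to 58207592), was 7.84, 8.89 and 10.8 FPKM on chow, 5.91, 6.42 and 4.30 on PTU and 63.2, 9.10 and 12.0 after T3 in WT. WT with T3 replicate 1 lay far above the others. The log2 rise was 1.65 ± 0.47 (adjusted p = 0.0117) with that library and 0.82 (adjusted p = 0.0019) without it. Fitted on the compared groups alone, the call ended (adjusted p = 0.171). In cKO, Igtp was 7.67, 8.51 and 7.91 FPKM on chow, 5.23, 7.17 and 7.75 on PTU and 8.47, 10.7 and 10.4 after T3, and the rise of 0.50 ± 0.47 did not pass (adjusted p = 0.41). Iigp1 showed the same library pattern, with 17.5, 13.9 and 14.4 FPKM on PTU and 71.1, 10.02 and 14.9 after T3 in WT, and its log2 difference was 0.53 with replicate 1 and -0.29 without it, neither passing (adjusted p = 0.409 and 0.364). Irgm1 (chromosome 11, 48865249 to 48871346), which restrains other members of its family, was 8.78, 11.4 and 10.5 FPKM on chow, 8.86, 9.37 and 8.54 on PTU and 26.9, 12.96 and 15.5 after T3 in WT, and 8.87, 10.1 and 8.98 FPKM on chow, 8.64, 7.84 and 8.89 on PTU and 12.8, 13.8 and 11.4 after T3 in cKO. PTU values overlapped chow in both genotypes, and T3 values lay above both. The rise over PTU was 0.91 ± 0.18 in WT (adjusted p = 0.000665), 0.62 without replicate 1 (adjusted p = 0.000603), and 0.53 ± 0.18 in cKO (adjusted p = 0.0214). Irgm2 rose from 2.90, 2.14 and 3.19 FPKM to 19.8, 3.95 and 5.96 in WT, by 1.27 ± 0.35 (adjusted p = 0.00883) and by 0.66 without replicate 1 (adjusted p = 0.00769), and its call too ended when fitted on the compared groups alone (adjusted p = 0.131). Tgtp1 has the near-identical copy Tgtp2, and its reads may be shared.

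The 2 chemokines, which draw in T cells through the receptor CXCR3, rose after T3 in WT and were near the lower end of detection. Cxcl9 was 0.626, 0.486 and 0.717 FPKM on PTU and 2.40, 1.05 and 1.53 after T3 in WT (log2 change 0.70 ± 0.19, adjusted p = 0.00797). Cxcl10 was 0.0886, 0.385 and 0.01 FPKM on PTU and 2.19, 2.31 and 0.962 after T3 in WT (log2 change 1.26 ± 0.25, adjusted p = 0.000717). It reached 1 FPKM in 3 libraries, all given T3, so it was tested through the groups where it is high. After T3 in cKO, Cxcl9 was 0.694, 0.593 and 0.554 FPKM and Cxcl10 1.16, 0.207 and 0.235 FPKM. The 3 cKO values of Cxcl9 lay below the 3 WT values. The deposited interval of Cxcl10 reaches far past its RefSeq start, so reads of overlapping genes could be counted with it.

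**Figure D3:**
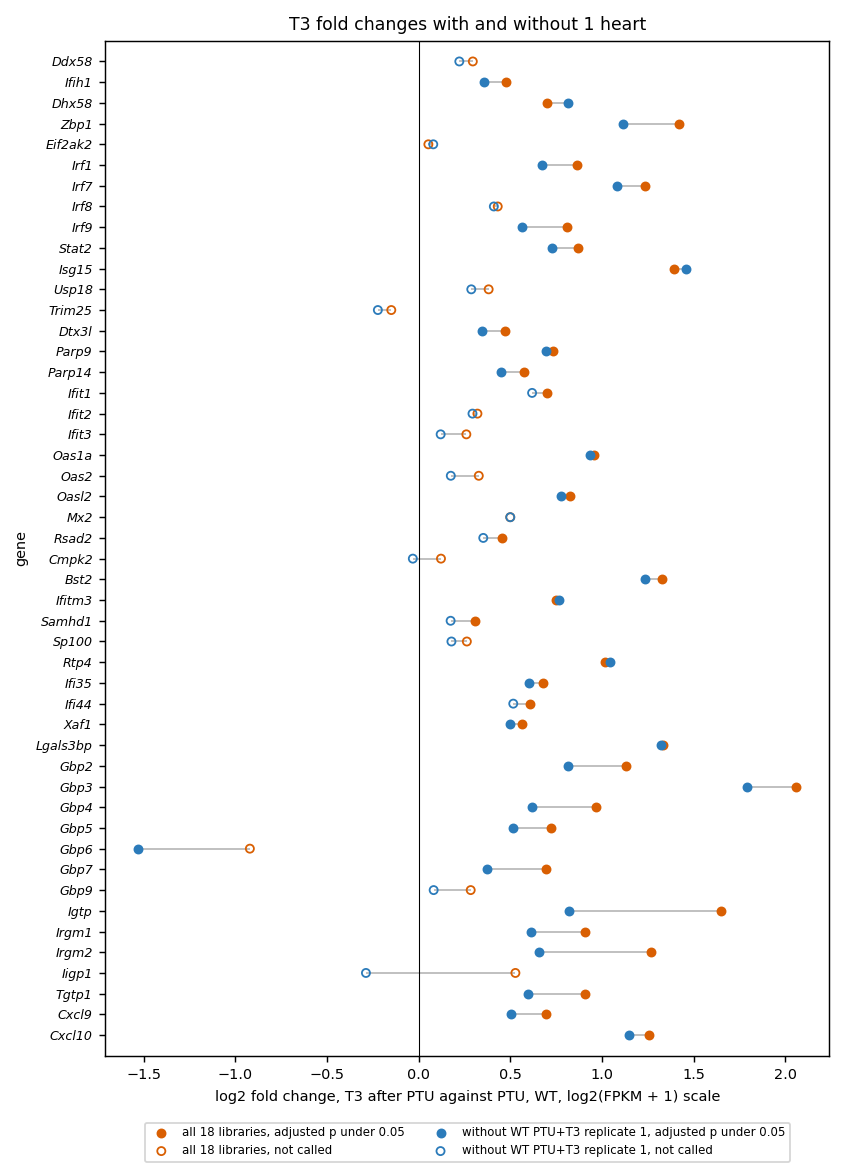
Points are log2 fold changes of the 48 tested members for T3 after PTU against PTU in WT, with all 18 libraries (orange) and without WT PTU+T3 replicate 1 (blue), filled where the adjusted p was under 0.05. Most pairs move a little to the left; Igtp and Iigp1 move most, and Gbp6 lies at -1.53 without the library.

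WT with T3 replicate 1 bore on the size of some changes after T3 more than on their number. Without it, 30 members rose and 1 fell, against 34 and 0 with it, and the median log2 change was 0.54 in place of 0.70. The counts without it are not set against shares of all tested genes. It exceeded the mean of the other libraries of its group by a median of 1.83 on the log2 scale over the immunity-related GTPases, 0.95 over the guanylate-binding proteins and 0.22 over the sensors. The 11 markers of T and NK cells summed to 8.26 FPKM there, against 4.04 and 3.69 in the other libraries of its group and 1.64 to 3.76 in all others. Within that list Nkg7 was 2.36 and Gzma 2.25 FPKM, while the T cell marker Cd3e was 0.297 FPKM. These genes were picked after their values were seen. The list's other genes, Ncr1 among them, are not given, so the values name no cell type. The part of T and NK cells in the result was not tested.

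Few members passed in limma between chow and PTU followed by T3, while the authors' deposited table, given below, has 10 higher in WT. Against chow, 5 members were higher in WT hearts with PTU and T3 and 0 were lower, shares of 10.4% and 0% against 7.68% and 7% of all tested genes, so the count lies near the background. They were Zbp1, Parp9, Ifi35, Irgm1 and Cxcl10, with log2 differences of 1.07, 0.33, 0.51, 0.73 and 1.01 (adjusted p = 0.0156, 0.0144, 0.0175, 0.0123 and 0.0132). Zbp1 and Cxcl10 were tested only through the hearts given T3, so their calls here are no independent evidence of a rise. Each of these 5 calls ended in at least 3 alternatives. In cKO, 2 members were higher with PTU and T3 than on chow (Parp9 and Ifi35) and 2 lower (Trim25 and Gbp6), against 11.7% and 9.15% of all tested genes, and all 4 calls ended in at least 1 alternative.

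In hearts labelled cKO, 10 members fell on PTU, a larger share than among all tested genes, and with all libraries the share that rose after T3 was no larger than among all tested genes. On PTU, 10 of 48 members fell and 0 rose (20.8% and 0%), against 9.59% and 6.44% of all tested genes: Irf1, Parp14, Rsad2, Ifitm3, Xaf1, Gbp2, Gbp3, Gbp4, Gbp5 and Tgtp1. After T3, 11 rose and 1 fell (22.9% and 2.08%), against 24.9% and 21.8% of all tested genes. The share that rose thus lay near the background, while the share that fell was below it. The 11 were Irf1, Dtx3l, Parp9, Oas1a, Bst2, Ifitm3, Rtp4, Ifi35, Gbp2, Gbp3 and Irgm1, all of which also rose in WT. Of the 21 members lower on PTU in WT, 9 were also called lower in cKO, and the other 12 had a negative fold change there. Median log2 changes of the tested members in cKO were -0.30 on PTU and 0.27 after T3. Without cKO on PTU replicate 2, 11 members fell on PTU and 15 changed in either direction after T3, with medians of -0.39 and 0.35. These counts are not set against the shares of all tested genes without that library. The count after T3 in cKO was sensitive to the libraries: with sample weights 16 members rose and 3 fell, against 26.5% and 23.5% of all tested genes, and without that library and WT with T3 replicate 1, 18 rose and 2 fell, against 22.8% and 20.2%.

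**Figure D4:**
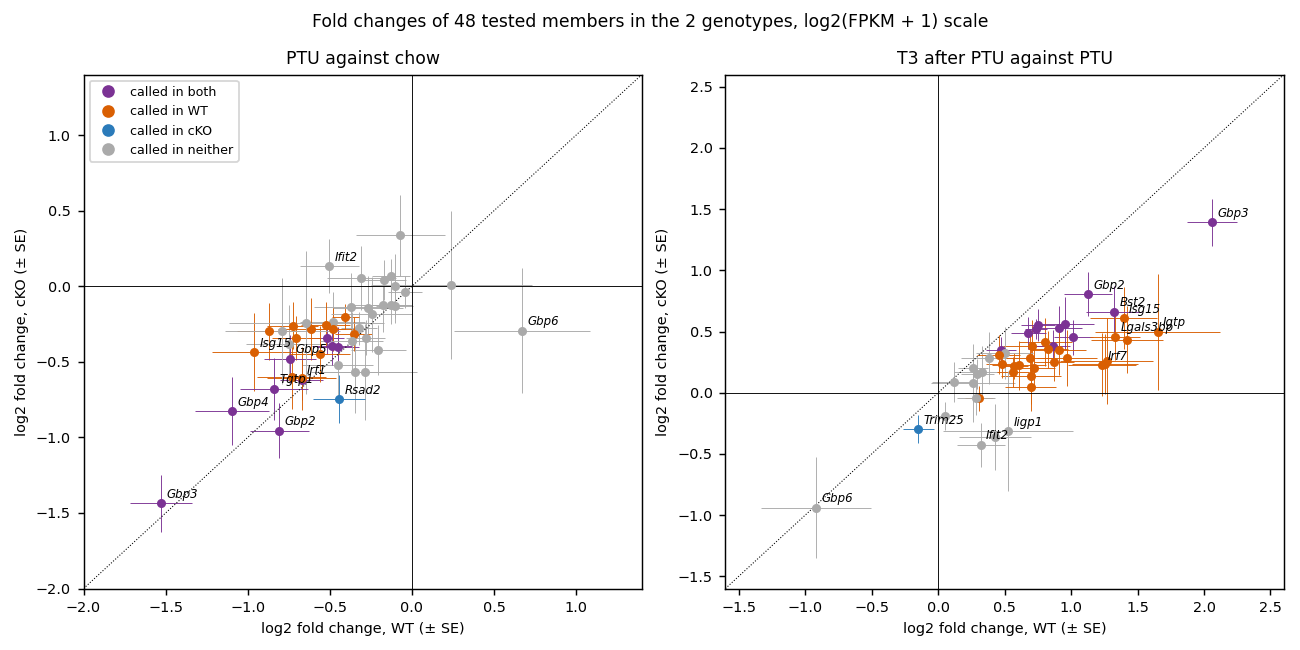
Each point is 1 of 48 tested members, with its log2 fold change in WT on the horizontal axis and in cKO on the vertical axis and bars of 1 SE, for PTU against chow (left) and T3 after PTU against PTU (right); the dotted line marks equal changes. Gbp3 lies farthest from 0 in both genotypes, and all 48 points on the right lie below the dotted line.

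The difference between genotypes itself did not pass for any gene. In limma, 0 of 12587 genes (0%) were called for cKO against WT on chow, on PTU, with PTU and T3, or averaged over treatments, and 0 for the interaction of genotype with PTU or with T3. At an unadjusted p under 0.05 the members numbered 0 on chow, 2 on PTU (Rsad2 and Irf1), 15 with PTU and T3, 2 averaged, 2 for the PTU interaction and 18 for the T3 interaction. As shares, the 15 are 31.2% of the members against 3.45% of all tested genes, and the 18 are 37.5% against 6.52%. The members' median log2 difference was -0.29 for cKO against WT with PTU and T3, and -0.39 for the T3 interaction. These values rest in part on WT with T3 replicate 1 and cKO on PTU replicate 2. Without the first, the members at an unadjusted p under 0.05 numbered 5 and 7, and the medians were -0.14 and -0.26. Without the second, the T3 interaction had 8 such members and a median of -0.31, and the PTU interaction had 0. The log2 change after T3 was lower in cKO than in WT for 48 of 48 tested members with all libraries. Without WT with T3 replicate 1 it was lower in cKO for 44. These signs are a description of genes measured in the same libraries and carry no test. The smallest unadjusted p for the T3 interaction was 0.00528 for Lgals3bp (log2 difference -0.87 ± 0.27, adjusted p = 0.696; -0.53 without cKO on PTU replicate 2, adjusted p = 0.977), then 0.01 for Cxcl10 (-1.02 ± 0.35) and 0.0103 for Ifit2 (-0.75 ± 0.26). For the PTU interaction it was 0.0247 for Ifit2 (0.64 ± 0.26, adjusted p = 0.764), then 0.0477 for Stat2 (0.47 ± 0.22) and 0.0504 for Lgals3bp (0.57 ± 0.27). Cxcl10 was tested only through the hearts given T3, so its p for the T3 interaction is no independent evidence.

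The authors' deposited tables hold 6 of the comparisons. At a q-value under 0.05, the authors' deposited table for PTU against chow in WT has 25 members lower and 1 higher, Gbp6, of 45 it tested, with 1133 lower and 928 higher among its 12250 tested genes. The authors' deposited table for T3 after PTU in WT has 35 members higher and 1 lower, Gbp6, of 48, with 2382 higher and 2056 lower among 12472. For PTU and T3 against chow in WT, it has 10 members higher and 0 lower of 48, with 820 higher and 712 lower among 12316. The 10 are Zbp1, Irf7, Bst2, Ifi35, Lgals3bp, Gbp3, Igtp, Irgm1, Irgm2 and Iigp1. Of these, limma called Zbp1, Ifi35 and Irgm1 and not the others. For cKO against WT on chow, the authors' deposited table has 0 of 45 members, with 40 genes higher and 40 lower in cKO among 12044. On PTU it has 0 of 41 members, with 86 genes higher and 31 lower in cKO among 12317. Few genes of any kind passed in these tables, so the counts of 0 lie near the background. With PTU and T3, the authors' deposited table has 9 members lower in cKO and 0 higher, with 102 genes lower and 19 higher among 12213. The 9 are Lgals3bp, Gbp2, Gbp3, Gbp4, Gbp6, Igtp, Irgm2, Iigp1 and Cxcl9, and in 8 of them, Lgals3bp aside, WT with T3 replicate 1 is the highest of the 18 libraries. The limma fit called none of the 9.

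Interferons themselves were at the floor of the data. The 20 ligand genes, interferon beta, alpha and gamma among them, summed to between 0.2 and 0.517 FPKM per library, where 0.2 is the sum of 20 values listed at the table's floor of 0.01, and none was tested. In most comparisons the receptors and their kinases changed in no common direction, and after T3 in cKO falls outnumbered rises. In WT, the 11 receptor and JAK-STAT genes gave 1 rise and 1 fall on PTU, against 8.02% and 8.76% of all tested genes. After T3 they gave 2 rises and 3 falls, against 22.3% and 21.8%. In cKO the counts were 2 and 2 on PTU, against 6.44% and 9.59%, and 1 and 5 after T3, against 24.9% and 21.8%. Ifngr2, a chain of the interferon gamma receptor, fell by 0.65 in WT and fell by 0.84 in cKO on PTU on the log2 scale (adjusted p = 0.000372 and 4.38e-05) and rose after T3 by 0.69 and 0.78 (adjusted p = 3.79e-05 and 9.08e-06). Tyk2, a kinase of the interferon alpha receptor, fell after T3, with changes of -0.49 in WT and -0.63 in cKO (adjusted p = 0.00274 and 0.000332). Of the sensing genes upstream of interferon, 7 of 14 tested rose after T3 and 1 fell in WT, against 22.3% and 21.8% of all tested genes. Among those that rose were Mavs, the mitochondrial adaptor of RIG-I, by 0.59, and Tlr7, an endosomal RNA receptor, by 0.93 (adjusted p = 0.001 and 0.00295). In cKO, 3 of the 14 rose and 1 fell after T3, against 24.9% and 21.8%.

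Of 56 further tested genes that interferon induces, 9 fell and 2 rose on PTU in WT, against 8.76% and 8.02% of all tested genes, and 23 rose and 3 fell after T3, against 22.3% and 21.8%. Their medians were -0.20 and 0.36. In cKO, 2 fell and 1 rose on PTU, against 9.59% and 6.44% of all tested genes, and 9 rose and 4 fell after T3, against 24.9% and 21.8%. These cKO counts lie below the background, with medians of -0.11 and 0.10. Slfn5, a Schlafen family member, changed by -1.22 on PTU and by 1.64 after T3 in WT (adjusted p = 2.41e-08 and 1.23e-10). B2m, the light chain of MHC class I, changed by -0.60 and 1.45 (adjusted p = 0.0484 and 3e-05). Ifitm1 went the other way, by 0.94 on PTU and -1.44 after T3 (adjusted p = 0.00969 and 0.000101). The 10 inhibitors of the pathway gave, in WT, 1 rise and 1 fall on PTU, against 8.02% and 8.76% of all tested genes. After T3 they gave 3 rises and 1 fall, against 22.3% and 21.8%. Socs1, which interferon induces and which blocks JAK kinases, rose after T3 by 0.46 (adjusted p = 0.0383).

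Markers of macrophages, cells that express many of these genes, moved in the same directions in WT. Of 15 markers, 8 fell on PTU and 12 rose after T3 in WT, against 8.76% and 22.3% of all tested genes. In cKO, 1 of them fell and 9 rose, against 9.59% and 24.9%, so with all libraries the count of falls on PTU did not exceed the background there. No count without cKO on PTU replicate 2 is given. Their summed level was 391 to 697 FPKM on chow, 221 to 344 on PTU and 582 to 912 after T3 in WT. In cKO it was 464 to 600, 228 to 692 and 588 to 694 FPKM. The cKO libraries on PTU held 228, 692 and 280 FPKM in order of replicate, so replicates 1 and 3 lay below every cKO chow library. Summed over the 49 interferon response genes, WT libraries held 413 to 475 FPKM on chow, 303 to 335 on PTU and 471 to 753 after T3, and cKO libraries 434 to 464, 298 to 390 and 430 to 460. The order of libraries was the same in both lists in cKO on PTU, where replicate 2 was highest and replicate 1 lowest, and differed in WT with T3. There replicate 2 had the highest macrophage sum, 912 FPKM, and was the lowest of its 3 libraries in 29 of the 49 members, while replicate 1 had 668 and was the highest in 38. The sum of 10 endothelial markers stayed between 319 and 423 FPKM in all libraries. The 6 mural markers, of smooth muscle cells and pericytes, summed to 404 to 485 FPKM on chow, 260 to 279 on PTU and 564 to 745 after T3 in WT, and to 389 to 473, 274 to 326 and 449 to 601 in cKO, so these sums too were lowest on PTU without overlap with the other groups. The 8 fibroblast markers summed to 568 to 1307 FPKM, except 1835 in WT with T3 replicate 2 and 1878 in cKO on PTU replicate 2. Dendritic cell markers summed to 6.73 to 10.2 FPKM and B cell markers to 0.632 to 2.68, except 12.9 in WT with T3 replicate 2. The part of macrophages, mural cells and fibroblasts in the result was not tested.

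**Figure D5:**
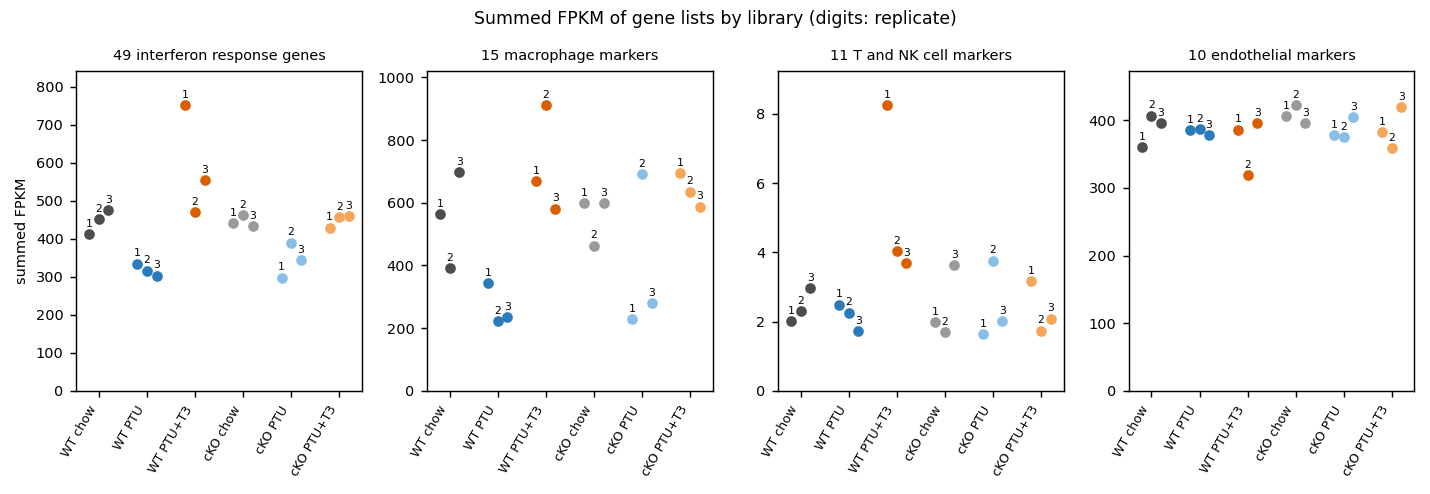
Points are summed FPKM per library for the 49 interferon response genes, 15 macrophage markers, 11 T and NK cell markers and 10 endothelial markers, in 6 groups of 3, with replicate numbers. Interferon response genes and macrophage markers are both low on PTU in WT, but replicate 1 of WT PTU+T3 is highest in the first panel and replicate 2 in the second.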

How the data were processed

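RNA from frozen hearts was extracted with Trizol and made into TruSeq RNA libraries, version 2, per the labels' protocols; Bowtie2, Cufflinks and the build mm10 appear, unversioned, among the submitters' processing notes. The authors deposited FPKM values for 24341 genes in 18 libraries, and 6 comparison tables with FPKM group values and q-values. The kit does not mark strand. Groups came from the genotype and treatment labels. From the FPKM values, log2(FPKM + 1) was computed. On this scale the change of low genes is understated. Limma 3.58.1 in R 4.3.3 fitted 6 group means with a trended, robust prior (12 residual degrees of freedom), and 12 comparisons were adjusted within themselves over 12587 genes. The fit was tested on simulated data. Named members were the 3 of highest mean in each role (2 chemokines), calls against the majority, the 3 largest folds per WT step and the smallest interaction p-values; other genes were chosen after their values were seen. Members and lists were chosen with earlier results of these data known. Alternatives varied the pseudocount, filter, scaling, prior, weights and libraries. Deposited intervals were counted from 1. The 2 genes with failed estimates (5 values) were left out.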

Additional observations from a re-analysis of the deposited data

How the results depend on the processing

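The count called after T3 in WT stayed within 1.5 times of 34 in every alternative, with 31 to 35 when 1 library was left out (30 higher and 1 lower without WT with T3 replicate 1), and 0 members were called for any genotype or interaction comparison in every alternative. The fall on PTU in WT went from 21 to 8 without the heart of each group highest in atrial markers, where 3.15% of all genes fell, and to between 12 and 17 with 1 library left out (12 without WT PTU replicate 1, 13 without WT chow replicate 3). PTU with T3 against chow in WT (5) went to 3 with a mean of at least 3 FPKM, 8 with sample weights, 1 without the atrial-high hearts (a lower one, where all 5 had been higher), 3 with only the compared groups, and 2 to 6 with 1 library left out. PTU in cKO (10) went to 6 with no filter, 4 without the atrial-high hearts, 18 without WT with T3 replicate 1 and cKO on PTU replicate 2, and 4 to 11 with 1 library left out. T3 in cKO (12) went to 19 with sample weights, 20 without those 2 hearts, and 7 to 15 with 1 library left out. PTU with T3 against chow in cKO (4) went to 7 with sample weights, 2 without the atrial-high hearts, and 1 to 4 with 1 library left out. The 2 alternatives without 2 hearts were chosen after seeing the data. Where no share of all tested genes is printed beside a count, that count is not set against a background. Its change from the main count then cannot be told apart from a change in the calls over all genes. Calls that held in every alternative were 5 of 21, 23 of 34, 0 of 5, 3 of 10, 4 of 12 and 0 of 4 for PTU in WT, T3 in WT, PTU with T3 against chow in WT, and the same 3 in cKO. The cause was not tested. No paired analysis was possible because the numbers in the titles are unique to each library. Absolute depth is unknown, and members under 1 FPKM, such as Mx1, lie below what these data resolve.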
